A study of Homo sapiens with 6 samples.

Results

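Immune checkpoint ligands on tumour cells are surface proteins that restrain lymphocytes or phagocytes, and 7 of their genes were followed here: VTCN1, VSIR, CD276, NT5E, CD47, PVR and NECTIN2. The members were taken by symbol from the deposited table of 14788 genes, and all 7 passed the filter on low values. The measurements were bulk RNA-seq of CAL51, an established human triple-negative breast cancer line, in 3 groups of 2 libraries each. The control group is named only as Ctrl in the labels, and the sources used here do not say what it carries, such as a non-targeting guide. KO-1 and KO-2 were made with 2 different guide RNAs against TREX1, a DNA exonuclease that degrades cytosolic DNA, delivered by lentiviral CRISPR. No dose, time or further treatment is given for these libraries, and all 6 share the same line. Every value below is a transcript level, and no protein was measured.

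VTCN1 (B7-H4), VSIR (VISTA) and CD276 (B7-H3) belong to the B7 family and its relatives. Inhibitory members of this group meet receptors on T cells and myeloid cells and lower their activity, while others are costimulators. PVR (CD155) and NECTIN2 (CD112) are nectin-type adhesion molecules shared between the activating receptor CD226 and the inhibitory receptors TIGIT and PVRIG. NT5E (CD73) is not a ligand in the strict sense but an enzyme that turns extracellular AMP into adenosine, which dampens T cells, and CD47 tells macrophages through SIRPA not to engulf the cell.

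Library totals ran from 13222933 reads in KO-2 replicate 1 to 25785055 reads in control replicate 2, so that 1 read was worth 0.0383 to 0.0767 CPM, the read count scaled to a common library total. KO-2 replicate 1 stood apart on the second principal component, at -33.41 against 5.18 to 8.94 for the other 5 libraries. KO-2 replicate 2 stood apart on the third, at 21.62 against -7.87 to -0.74. The difference between replicates over tested genes had an SD of 0.387 in KO-2, 0.239 in control and 0.276 in KO-1. No row of the table is named TREX1, so the knockout labels were not checked against the targeted gene. The epithelial genes EPCAM, KRT8 and KRT18 were present (log2 CPM of 8.17, 9.57 and 8.60 in control replicate 1). In the same library the keratin KRT7 was low (-0.20, 18 reads), and the mesenchymal gene VIM stood at 6.29. ESR1, PGR, KRT5 and KRT14 were not analysed here. Of 15 leukocyte, endothelial and red cell markers, 6 were in the table, with a summed level of 37.4 and 40.9 CPM in controls and 36.0 to 40.6 CPM in the knockout libraries. The pan-leukocyte gene PTPRC gave 15.4 to 20.2 CPM of that sum, while CD3E, CD3D, MS4A1, LYZ and CD68 were not analysed here. The part of these transcripts in the results below was not tested.

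Most of the ligands rose in both knockouts. With both guides set against control (limma on the deposited log2 CPM, Benjamini-Hochberg adjusted p below 0.05 over 13765 genes), 5 of the 7 members were higher, 1 was lower and 1 was not called. Among all tested genes, 14.6% were called higher and 14.9% lower in that comparison. The median log2 fold change was 0.40 over the 7 members and -0.01 over all tested genes. Because the members were chosen with earlier results of these data known, neither comparison tests the ligands as a group. VTCN1 and VSIR changed most, at about 2 times the control level, CD47 was the member that fell, and NECTIN2 was the one that did not pass. The knockout libraries lay above both controls for VTCN1, VSIR, CD276, NT5E and PVR, a separation seen in 22.3% of tested genes, and below both controls for CD47, seen in 24.0%. In bulk RNA, a change in the number of expressing cells and a change in RNA per cell cannot be told apart. The 3 comparisons with control share the same 2 control libraries.

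**Figure D1:**
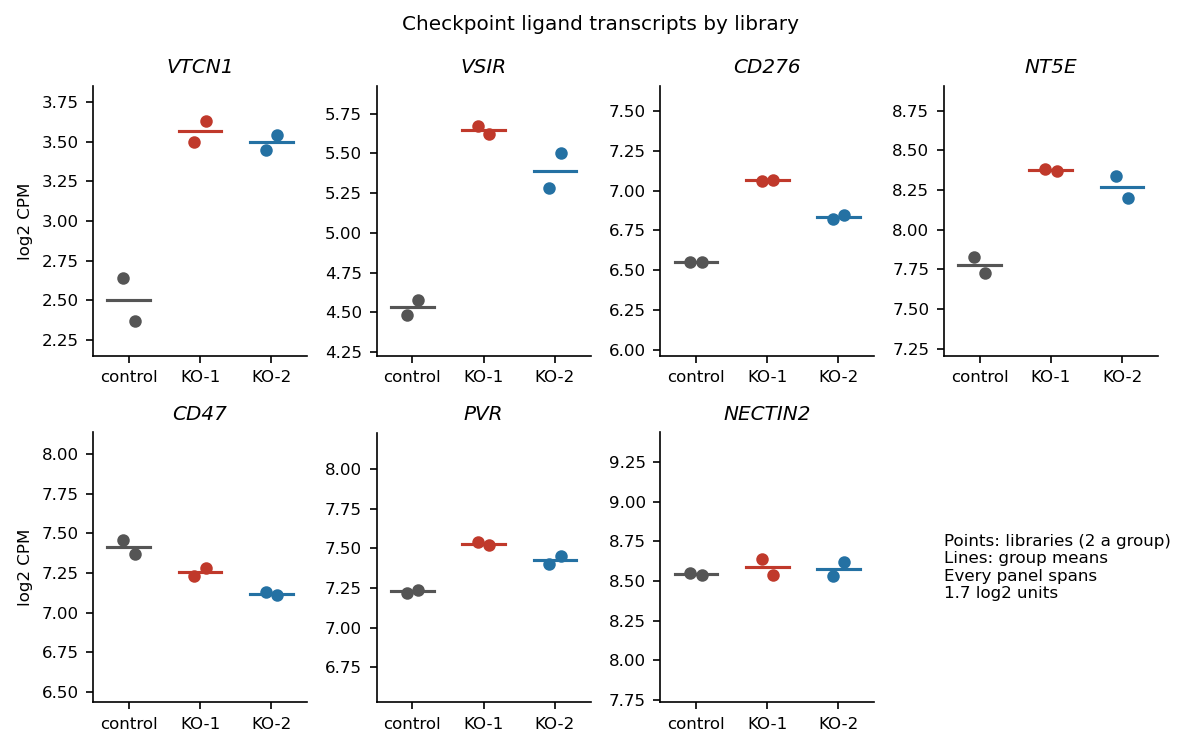
Level of each member (log2 CPM, vertical axis) in control, KO-1 and KO-2. Points are libraries and lines are group means. Every panel spans the same number of log2 units around its own centre, so distances but not heights can be compared between panels. VTCN1 and VSIR move by about 1 log2 unit, and knockout libraries overlap the controls only for NECTIN2.

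The sequences just upstream of the transcript starts are shown for the pair that changed most and for the member that fell. They are RefSeq sequences of GRCh38.p14, minus strand, 5′ to 3′, cut to bases outside every annotated exon. The CD47 stretch lies upstream of the RefSeq start but inside the gene's GENCODE span, because a longer transcript begins further upstream. Capitals mark the GC box, GGGCGG on either strand, which is bound by SP-family factors. The VTCN1 stretch is chr1:117210961-117211177, the VSIR stretch chr10:71773521-71773770 and the CD47 stretch chr3:108091032-108091281.
VTCN1: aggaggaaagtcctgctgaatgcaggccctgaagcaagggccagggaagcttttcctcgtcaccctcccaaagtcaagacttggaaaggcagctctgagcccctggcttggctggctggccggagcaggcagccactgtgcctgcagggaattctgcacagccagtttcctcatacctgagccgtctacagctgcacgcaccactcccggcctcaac
VSIR: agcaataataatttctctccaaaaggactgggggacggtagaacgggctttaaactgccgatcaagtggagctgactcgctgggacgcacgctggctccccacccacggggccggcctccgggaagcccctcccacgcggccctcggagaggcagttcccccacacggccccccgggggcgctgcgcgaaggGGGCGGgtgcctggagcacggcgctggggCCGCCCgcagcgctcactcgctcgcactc
CD47: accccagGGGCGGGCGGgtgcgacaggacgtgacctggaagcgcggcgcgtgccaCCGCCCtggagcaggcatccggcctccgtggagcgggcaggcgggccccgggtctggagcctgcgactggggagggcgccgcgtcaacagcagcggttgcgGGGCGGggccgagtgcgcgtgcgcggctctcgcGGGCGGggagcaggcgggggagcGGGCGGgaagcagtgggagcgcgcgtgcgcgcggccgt
In windows of 250 bases upstream of the RefSeq start, CD47 had 79.6% G and C, 39 CpG dinucleotides and 6 GC boxes, counting overlaps. VSIR had 69.6% G and C, 25 CpG dinucleotides and 2 GC boxes. VTCN1 had 58.4% G and C, 6 CpG dinucleotides and 0 GC boxes. Over 35116 promoters the median was 58.0% G and C, close to VTCN1, and 11 CpG dinucleotides, above it. Across those promoters, 42.6% held a GC box. The windows of the other members, also set by RefSeq starts, were CpG-rich as well: NT5E at 75.2% G and C with 28 CpG dinucleotides, PVR at 70.0% with 27, NECTIN2 at 67.6% with 19, and the 2 starts of CD276 at 80.8% and 77.2% with 29 and 23. In GENCODE the NT5E window and that of the second CD276 start begin within annotated exons, and the windows of VTCN1, PVR, NECTIN2 and the first CD276 start reach into one. VTCN1, with the fewest CpG dinucleotides, was also the member with the lowest level, and a link between the 2 was not tested. An NF-kB site was matched once in VSIR and once at the second start of CD276, and 10.0% of all promoters hold one. An AP-1 site TGANTCA (6.6% of promoters), a TATA box TATAAA (10.7%) and a GAS element TTCNNNGAA (6.6%) were not matched in these windows for any member, on either strand.

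VTCN1 lies on chromosome 1 (hg38, 117143587 to 117210960, minus strand) and is an inhibitory B7 protein known from breast and ovarian carcinomas. Its log2 CPM was 2.64 and 2.37 in the controls, 3.50 and 3.63 in KO-1, and 3.45 and 3.54 in KO-2. All 4 knockout libraries were above both controls, and the KO-1 and KO-2 values lay between 3.45 and 3.63. Over both guides the level rose 2.04-fold (95% interval 1.65 to 2.52; log2 fold change 1.03 ± 0.14 SE, adjusted p = 0.00047), rank 222 of 13765 by size of change. The rise was 1.06 on the log2 scale in KO-1 (adjusted p = 0.00083) and 0.99 in KO-2 (adjusted p = 0.0029). It rested on 132 to 233 reads per library, the fewest of the 7 members, and the controls differed more from each other than the knockout pairs did (SD 0.19 against 0.09 and 0.07).

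VSIR, on chromosome 10 (71747559 to 71773498, minus strand), encodes a B7-related protein that acts on T cells as ligand and on myeloid cells as receptor. The gene lies within the span of CDH23 on the opposite strand, with 0 bases of shared exon. Its log2 CPM was 4.48 and 4.58 in the controls, 5.67 and 5.62 in KO-1, and 5.28 and 5.50 in KO-2. Every knockout library was well above the controls, with KO-2 replicate 1 the lowest of the 4. The level rose 1.98-fold over both guides (95% interval 1.73 to 2.26; log2 fold change 0.98 ± 0.09 SE, adjusted p = 3.2e-05). It rose 2.16-fold in KO-1 and 1.81-fold in KO-2 (adjusted p = 3.8e-05 and 0.0005).

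CD276, on chromosome 15 (73683966 to 73714518, plus strand), encodes a B7 protein found on many solid tumours. Its log2 CPM was 6.55 in both controls, 7.06 and 7.07 in KO-1, and 6.82 and 6.85 in KO-2. The 3 groups did not overlap, and the replicates of each group differed by 0.03 or less. Over both guides the level rose 1.32-fold (95% interval 1.22 to 1.43; log2 fold change 0.40 ± 0.05 SE, adjusted p = 0.0004). The rise was 1.43-fold in KO-1 (adjusted p = 0.00021) and 1.22-fold in KO-2 (adjusted p = 0.011). The KO-2 call was lost when either control library was left out, with adjusted p = 0.12 without control replicate 1 and 0.11 without control replicate 2, and ran from 0.00091 to 0.12 over 15 alternatives.

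The B7 ligands best known from therapy, CD274 (PD-L1) and PDCD1LG2 (PD-L2), and the costimulators CD80, CD86 and ICOSLG were not analysed here. Of 16 other genes of the B7 and butyrophilin families, 7 were tested, with a median log2 fold change of 0.03 over both guides. Of these, 2 were called higher and 0 lower (background 14.6% and 14.9% of tested genes). BTN2A1, a butyrophilin that takes part in recognition by gamma-delta T cells, was 5.16 and 5.15 log2 CPM in the controls, 5.75 and 5.86 in KO-1, and 5.44 and 5.54 in KO-2. It rose by 0.49 ± 0.07 SE (adjusted p = 0.00082). ILDR2 had only 6 and 12 reads in the controls and 14 to 20 in the knockout libraries, entered the test through 2 knockout libraries, and its call (adjusted p = 0.034) was lost without any 1 of the control and KO-1 libraries (adjusted p up to 0.28 over 14 alternatives). NCR3LG1, the B7-H6 ligand of the natural killer receptor NKp30, had a log2 fold change of -0.19 (adjusted p = 0.13, and 0.042 without KO-2 replicate 1, the lowest of 15 alternatives up to 0.59), and BTN2A2 one of -0.03 (adjusted p = 0.89).

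Genes that pair with or process these 3 proteins were also followed, too few to compare with the background. Of 8 such genes, 5 were tested. Over both guides 0 were higher and 1 was lower (background 14.6% and 14.9% of tested genes). It was STT3B, a catalytic subunit of the oligosaccharyltransferase that attaches N-glycans, with a log2 fold change of -0.19 (adjusted p = 0.0085, and 0.00017 to 0.16 over 15 alternatives, the highest without control replicate 2, with 0.06 when control replicate 1 was omitted and 0.051 for KO-1 replicate 2). Its paralogue STT3A stood at 0.02 (adjusted p = 0.81). IGSF11, a partner of VSIR, had 6 and 11 reads in the controls, 16 and 30 in KO-1, and 6 and 8 in KO-2, and was called higher in KO-1 alone (1.65, adjusted p = 0.032) but not over both guides (adjusted p = 0.12), entering the test through the KO-1 libraries. SELPLG, another VSIR partner, had 0 to 13 reads and was not tested.

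PVR and NECTIN2 are neighbours on chromosome 19 (PVR at 44643798 to 44663583, NECTIN2 at 44846175 to 44889228, both plus strand, 182.6 kb apart). PVR shares 121 exon bases, 3.44% of its exon length, with CEACAM19 on the same strand, and NECTIN2 shares 128 bases, 3.42%, with an antisense gene. The sources used here do not say how such reads were counted. PVR, which binds TIGIT, CD96 and CD226, was 7.22 and 7.24 log2 CPM in the controls, 7.54 and 7.52 in KO-1, and 7.40 and 7.45 in KO-2. The groups did not overlap, with KO-2 between control and KO-1. The level rose 1.19-fold over both guides (95% interval 1.10 to 1.28; log2 fold change 0.25 ± 0.05 SE, adjusted p = 0.0034). Over 15 alternatives the adjusted p for both guides ran from 4.0e-05 to 0.075, and omitting control replicate 1 (0.075) or 2 (0.053) ended the call. In KO-1 alone the rise was 0.30 (adjusted p = 0.0026). In KO-2 alone it was 0.20 (adjusted p = 0.034), which stayed below 0.05 in 7 of 15 alternatives and reached 0.25 without control replicate 1. The other libraries whose omission lost the KO-2 call were control replicate 2 (adjusted p = 0.19), KO-1 replicate 1 (0.084) and KO-1 replicate 2 (0.085).

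NECTIN2, which binds PVRIG, TIGIT and CD226, was 8.55 and 8.54 log2 CPM in the controls, 8.64 and 8.54 in KO-1, and 8.53 and 8.62 in KO-2. The 3 groups overlapped. The log2 fold change over both guides was 0.04 ± 0.05 SE (95% interval -0.07 to 0.15, adjusted p = 0.57), so that with 4811 to 9705 reads per library a change beyond 1.11-fold upward or 0.95-fold downward lay outside the interval. Within a library, PVR stood at 39.8% and 40.6% of the NECTIN2 CPM in the controls, 46.6% and 49.3% in KO-1, and 45.8% and 44.4% in KO-2. The proportion of PVR to NECTIN2 transcripts was thus higher in each knockout library than in either control.

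Among other genes of the nectin group, the only one called higher was NECTIN4, which had few reads. Of 8, 6 were tested, with a median log2 fold change of -0.12 over both guides. Of these, 1 was higher and 2 were lower (background 14.6% and 14.9% of tested genes). NECTIN1, an adhesion molecule and herpesvirus receptor, was 5.75 and 5.76 log2 CPM in the controls and 5.17 to 5.48 in the knockout libraries, none of which reached the controls. Its log2 fold change was -0.39 (adjusted p = 0.0034, and 0.059 or 0.056 without control replicate 1 or 2, with a range from 0.00011 to 0.059 over 15 alternatives). AFDN, the afadin that ties nectins to actin, had a log2 fold change of -0.23 (adjusted p = 0.019), but without control replicate 2 its adjusted p was 0.31, the highest of 15 alternatives from 0.00099, and without KO-1 replicate 2 it was 0.088. NECTIN3, which PVR can bind in trans, stood at -0.08 (adjusted p = 0.44, and -0.14 with 0.03 without KO-2 replicate 1, the lowest of 15 alternatives up to 0.77). NECTIN4 was low, with 22 and 4 reads in the controls, 56 and 52 in KO-1, and 18 and 34 in KO-2. Only 1 control library met the filter, so NECTIN4 entered the test through the knockouts. In KO-2 alone limma did not call NECTIN4 (1.66, adjusted p = 0.064). Its call as higher (2.14, adjusted p = 0.0072) was lost without control replicate 2 (1.13, adjusted p = 0.087, the highest of 14 alternatives from 0.00067). CADM4 stood at -0.16 (adjusted p = 0.21, and 0.026 without KO-2 replicate 2, the lowest of 15 alternatives up to 0.84). The receptors TIGIT, CD226 and CD96 were not analysed here.

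NT5E, on chromosome 6 (85449584 to 85495791, plus strand), was 7.83 and 7.73 log2 CPM in the controls, 8.38 and 8.37 in KO-1, and 8.34 and 8.20 in KO-2. All 4 knockout libraries were above both controls, while KO-1 and KO-2 lay close together. The level rose 1.46-fold over both guides (95% interval 1.34 to 1.58; log2 fold change 0.54 ± 0.05 SE, adjusted p = 7.2e-05), on 4233 to 6061 reads per library. The rise was 0.59 in KO-1 (adjusted p = 9.8e-05) and 0.49 in KO-2 (adjusted p = 0.00084). Of the 7 members' summed CPM, NT5E made up 21.7% and 20.8% in the controls, 26.4% and 26.7% in KO-1, and 27.9% and 25.0% in KO-2.

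The genes around NT5E in the adenosine pathway were not called higher. Of 19 listed, 13 were tested, with a median log2 fold change of -0.15 over both guides. Of these, 0 were higher and 1 was lower (background 14.6% and 14.9% of tested genes). ENTPD1 (CD39), which supplies AMP to NT5E by cleaving ATP and ADP, was 4.08 and 4.15 log2 CPM in the controls, 4.21 and 4.05 in KO-1, and 3.81 and 3.79 in KO-2. It was not called (log2 fold change -0.15, adjusted p = 0.32). The equilibrative transporter SLC29A1, which carries adenosine into cells, stood at 6.17 and 6.28 in the controls, 5.78 and 5.88 in KO-1, and 6.11 and 6.15 in KO-2. It was lower over both guides (-0.24, adjusted p = 0.018) and in KO-1 (-0.39, adjusted p = 0.0033), and not called in KO-2 (-0.09, adjusted p = 0.43). Omitting control replicate 1 gave an adjusted p of 0.085 for both guides, omitting control replicate 2 gave 0.25 and omitting KO-1 replicate 1 gave 0.077, within 0.0017 to 0.25 over 15 alternatives. ALPL, a phosphatase that can also make adenosine from AMP, was lower in KO-1 (-0.31, adjusted p = 0.0044) and stood at 0.05 in KO-2 (adjusted p = 0.62). Over both guides it stood at -0.13 (adjusted p = 0.10, and 0.024 without KO-2 replicate 1, the lowest of 15 alternatives up to 0.43). DPP4 (CD26), which anchors adenosine deaminase, and SLC29A2 stood at -0.26 and -0.32 over both guides (adjusted p = 0.093 and 0.10). Without KO-2 replicate 1 DPP4 was called lower (-0.37, adjusted p = 0.00039), as it was with voom (0.043), within 0.00039 to 0.35 over 15 alternatives. SLC29A2 was called lower without KO-2 replicate 2 (-0.44, adjusted p = 0.0027, the lowest of 15 alternatives up to 0.39).

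CD47, on chromosome 3 (108043094 to 108091862, minus strand), was the member that went down. Its log2 CPM was 7.46 and 7.37 in the controls, 7.23 and 7.28 in KO-1, and 7.13 and 7.11 in KO-2. All 4 knockout libraries were below both controls, KO-2 lowest. Over both guides the level was 0.85 times the control level (95% interval 0.79 to 0.92; log2 fold change -0.23 ± 0.05 SE, adjusted p = 0.0075). Without control replicate 1, the higher of the controls, the adjusted p was 0.16, and it ran from 0.00027 to 0.16 over 15 alternatives. In KO-2 alone the log2 fold change of CD47 was -0.30 (adjusted p = 0.0087, and 0.14 or 0.057 without control replicate 1 or 2). In KO-1 alone it stood at -0.16 (95% interval -0.30 to -0.03, adjusted p = 0.063), and the adjusted p was 0.008 when either KO-2 library was left out of the shared estimate of spread, within a range from 0.0074 to 0.41.

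The 9 tested partners and modifiers of CD47 had a median log2 fold change of 0.10 over both guides. Of these, 3 were higher and 1 lower (background 14.6% and 14.9% of tested genes). The lower gene was QPCTL, the glutaminyl cyclase that forms the pyroglutamate through which CD47 binds SIRPA. QPCTL was 5.08 and 5.24 log2 CPM in the controls, 4.54 and 4.44 in KO-1, and 4.73 and 4.68 in KO-2. It fell by 0.56 on the log2 scale (SE 0.09, adjusted p = 0.0011) and passed in all 15 alternatives. THBS1, a secreted CD47 ligand, was 9.39 and 9.47 in the controls and 9.53 to 9.82 in the knockout libraries, and rose by 0.25 (adjusted p = 0.0037, and 0.088 without control replicate 1, the highest of 15 alternatives from 3.6e-06). ITGB3 (0.24, adjusted p = 0.028) and UBQLN1 (0.16, adjusted p = 0.034) were the other genes called higher, and neither passed when a control library or KO-1 replicate 1 was omitted (adjusted p up to 0.21 and 0.26), UBQLN1 also without KO-1 replicate 2 (0.12). In KO-2 alone, limma called neither THBS1 (0.16, adjusted p = 0.079) nor ITGB3 (0.14, adjusted p = 0.27). UBQLN1 was called with neither guide alone (adjusted p = 0.074 in KO-1 and 0.069 in KO-2). SIRPA itself stood at 0.10 (adjusted p = 0.46).

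**Figure D2:**
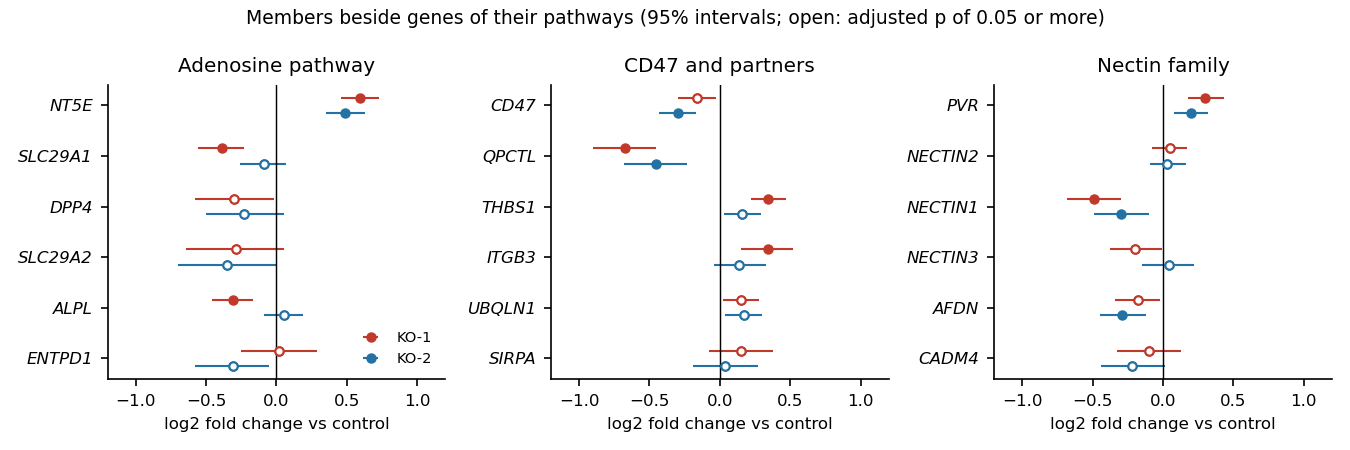
Log2 fold change against control in KO-1 and KO-2 (horizontal axis, with 95% limma intervals) for members and genes of their pathways (the lowly expressed NECTIN4 is not drawn). Filled points have an adjusted p below 0.05: NT5E rises without ENTPD1, CD47 and QPCTL lie on the negative side, and PVR differs from control where NECTIN2 is not called.

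Taken singly, KO-1 had 5 members called higher and 0 lower (background 14.6% and 15.1% of tested genes), and KO-2 had 5 higher and 1 lower (background 8.73% and 8.19%). The members called higher were the same 5 with each guide. The median log2 fold change of the 7 was 0.51 in KO-1 and 0.29 in KO-2. KO-2 lay below KO-1 in the mean of all 7 members, as it did in 50.3% of tested genes, so the rises were smaller and the CD47 fall larger in KO-2. None of these differences between the guides passed: limma called 0 of 7 members, where 1.14% of tested genes were called, and the voom fit on recovered reads also called 0. At an unadjusted p below 0.05 there were 3, as for 17.3% of tested genes. They were CD276 (-0.23, 95% interval -0.36 to -0.09, adjusted p = 0.11), VSIR (-0.26, -0.48 to -0.04, adjusted p = 0.22) and CD47 (-0.13, adjusted p = 0.28). The intervals do not show that the guides act alike. Leaving out KO-2 replicate 1 gave CD276 an adjusted p of 0.047, and leaving out KO-2 replicate 2 gave CD276 0.0064 and VSIR 0.0091 (ranges over 15 alternatives 0.0064 to 0.50 and 0.0091 to 0.61).

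**Figure D3:**
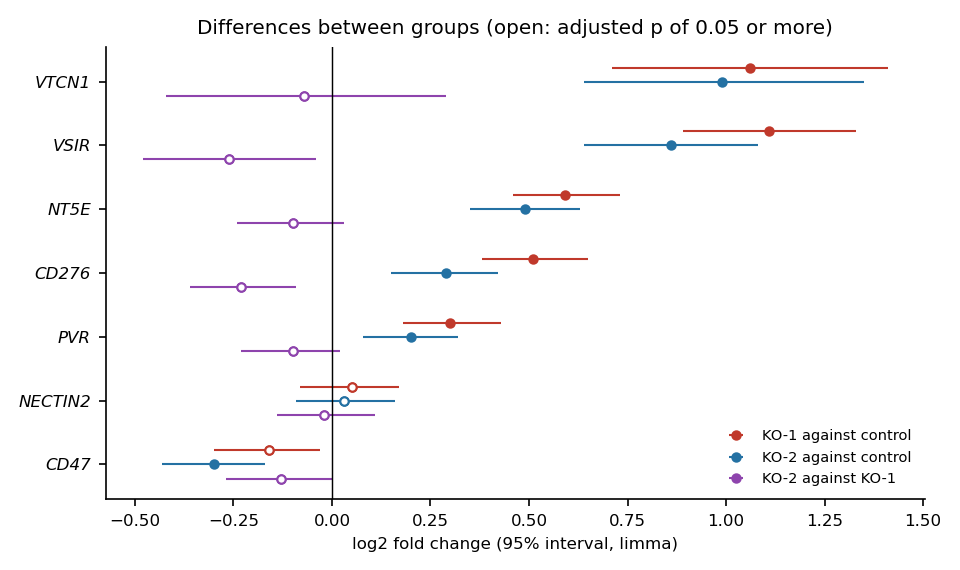
Log2 fold change of each member (horizontal axis, points with 95% limma intervals) for each knockout against control and for the 2 knockouts against each other. Open points have an adjusted p of 0.05 or more: every comparison of the guides is open, and CD47 is filled in KO-2 only.

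In the authors' deposited table of comparisons, a false discovery rate of 0.05 was passed by 5 members in KO-1, by 6 in KO-2 and by 0 between the guides. The log2 fold changes of the authors' deposited table differed from those given here by at most 0.014. For CD47 the authors' deposited table gave a false discovery rate of 0.061 in KO-1 and 0.0062 in KO-2.

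Divided by exon length, the members spanned a wide range of levels. In the controls NECTIN2 was highest at 99.5 CPM per kb, followed by NT5E at 48.5, PVR at 42.6, CD47 at 20.8, CD276 at 16.9, VSIR at 4.50 and VTCN1 at 1.85. No pair of neighbours in that order overlapped between libraries, the closest being NT5E and PVR, 0.19 log2 units apart. In both knockouts CD276 stood above CD47, which reversed their control order: 24.1 against 18.5 CPM per kb in KO-1 and 20.6 against 16.9 in KO-2. Without the division by merged exon length, CD276 stayed below CD47 in CPM in every library. It was 53.2% and 56.6% of CD47 in the controls, 88.9% and 86.3% in KO-1, and 80.5% and 84.0% in KO-2. The summed CPM of the 7 genes was 1050 and 1020 in the controls, 1260 and 1240 in KO-1, and 1160 and 1170 in KO-2, with NECTIN2 the largest share in every library. The members with the largest fold changes, VTCN1 and VSIR, remained the lowest in level in each group.

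**Figure D4:**
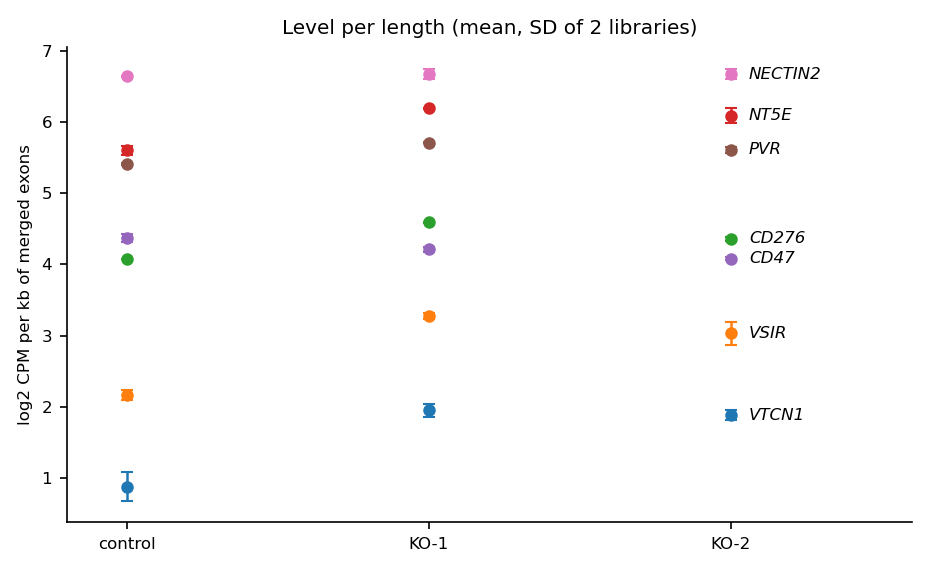
Level per length of each member (log2 CPM per kb of merged exons, mean with SD of 2 libraries) in control, KO-1 and KO-2. NECTIN2 is highest and VTCN1 lowest in every group. Per length, CD276 and CD47 change places between control and both knockouts, which they do not in undivided CPM.

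Inhibitory molecules outside the B7 family were called in 1 direction. Of 15 ligands and enzymes of this kind, 9 were tested, with a median log2 fold change of 0.38 over both guides. Of these, 5 were higher and 0 lower (background 14.6% and 14.9% of tested genes). In KO-2 alone 3 were higher and 0 lower (background 8.73% and 8.19%). LGALS3, a galectin that binds LAG3, was 6.10 and 6.19 log2 CPM in the controls and 6.47 to 6.61 in the knockout libraries, and rose by 0.38 (adjusted p = 0.0014). CD200, which calms myeloid cells through its receptor, was 4.60 and 4.34 in the controls and 4.96 to 5.00 in the knockout libraries. It rose by 0.52 (adjusted p = 0.0024, and 0.07 without control replicate 2, the highest of 15 alternatives from 0.00011). IDO1, the tryptophan-degrading enzyme, rose by 0.38 (adjusted p = 0.015), which became 0.16 when control replicate 1 was omitted, 0.11 for control replicate 2 and 0.056 for KO-1 replicate 2, over alternatives from 0.004 to 0.16. CD24, a signal to Siglec-10 on macrophages, rose by 0.16 (adjusted p = 0.011), and passed in 8 of 15 alternatives, with adjusted p up to 0.19, reached without control replicate 2; it was also lost without control replicate 1 (0.062), KO-1 replicate 1 (0.055) or KO-1 replicate 2 (0.056). By limma, CD24 was called in KO-1 alone (0.26, adjusted p = 0.0015) but not in KO-2 (0.05, adjusted p = 0.44). The remaining call was TNFRSF14, the BTLA ligand, named after its values were seen: 3.54 and 3.34 log2 CPM in the controls, 4.41 in both KO-1 libraries, and 3.32 and 4.25 in KO-2 (log2 fold change 0.66, adjusted p = 0.033), with KO-2 replicate 1 no higher than the controls. Of the costimulatory TNF family ligands, 3 of 8 were tested. TNFSF9 (4-1BB ligand), which stimulates T cells, was 3.69 and 3.83 in the controls, 4.69 and 4.98 in KO-1, and 4.22 and 4.64 in KO-2. It rose by 0.88 ± 0.13 SE (adjusted p = 0.00089) and passed in all 15 alternatives. TNFSF18, with 8 to 30 reads a library, was called higher in KO-1 (1.47, adjusted p = 0.03) but not over both guides (1.12, adjusted p = 0.052), where 4 of 14 alternatives passed, from 0.0077 without KO-2 replicate 1 up to 0.26. For TNFSF18 no control library met the filter, so it entered the test through the knockouts. TNFSF4 did not pass (adjusted p = 0.23).

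All 20 listed regulators of checkpoint ligand levels were tested, with a median log2 fold change of 0.26 over both guides. Of these, 9 were higher and 1 lower (background 14.6% and 14.9% of tested genes). STAT3, a transcription factor activated by cytokines, was 7.67 and 7.73 log2 CPM in the controls, 8.38 and 8.41 in KO-1, and 8.14 and 8.19 in KO-2, a rise of 0.58 (adjusted p = 1.8e-05). EZH2, the methyltransferase of Polycomb complex PRC2, was 6.56 and 6.54 in the controls and 6.07 to 6.24 in the knockout libraries, a fall with log2 fold change -0.40 (adjusted p = 0.00089). The NF-kB subunit RELA and CMTM6, which protects PD-L1 from degradation, each rose by 0.28 (adjusted p = 0.0035 and 0.0039), calls lost without control replicate 2 (0.085 and 0.094, the highest of 15 alternatives from 8.6e-05 and 5.8e-05). Their part in the ligand changes was not tested. Of the 15 receptors that lymphocytes and myeloid cells carry, 2 were tested: HAVCR2 (TIM-3) had 0 and 6 reads in the controls and 11 to 26 in the knockout libraries, entered the test through the knockouts, and was called higher (adjusted p = 0.0054, and 0.082 without control replicate 1, from 0.00099 over 14 alternatives), while LAG3 was not called (adjusted p = 0.25, and 0.00018 without KO-2 replicate 2, which left KO-2 replicate 1 with 0 reads as the only KO-2 library; up to 0.58 over 14 alternatives).

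For each member, the genes with the most similar pattern across the 6 libraries were sought among 10161 genes whose mean log2 CPM was 3 or more, by the root mean square difference of centred log2 CPM. CD276 was closest to PLK2 (0.015) and MAP1LC3B (0.020), and VSIR to NRCAM (0.061) and SESN2 (0.064). NT5E was closest to KCNK1 (0.027) and ATAD1 (0.034), and VTCN1 to GPAT3 (0.105) and IL18 (0.114). CD47 was closest to GRINA (0.017) and PSAT1 (0.024), PVR to GOLIM4 (0.017) and TNIK (0.019), and NECTIN2 to SDF4 (0.011) and CENPBD2P (0.017). No member was among the closest pair of another member. With 6 libraries in 3 groups, many genes can match a pattern this closely.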

How the data were processed

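Poly(A) RNA of 6 CAL51 libraries was sequenced. Per the submitters' processing notes, fastp, STAR 2.7, featureCounts, Subread 2.0 and edgeR were used with build hg38, with no role or order given; the sources used here give no annotation, strand setting or adapter options. The authors deposited log2 CPM with a prior count, and separate tables of log2 fold changes with p-values and false discovery rates. Whole reads were recovered from the log2 CPM (100% of values within 0.01 reads) and used for read counts and the voom alternative. The test was limma 3.58.1 in R 4.3.3, with a group-means model over all 6 libraries (3 residual degrees of freedom) and a mean-variance trend. Genes needed a log2 CPM of at least 0 in 2 libraries, which removed 1023 genes, and an adjusted p below 0.05 was the threshold. The method was tested on simulated data. The labels do not say that replicates are separate cultures, and the deposited notes speak of knockout clones, so the p-values reflect spread among these libraries alone, and that spread may be technical. Exon lengths came from GENCODE 29 (merged exons), and promoters from RefSeq. Named were all members, up to 4 genes of each other list by smallest p over both guides, and fixed partner genes. TNFRSF14, ERBB2, ITGAV, EPCAM and KRT7 were added after their values were seen. Alternatives covered filters, scaling, the trend, voom, a pseudocount of 1 CPM, only the compared groups, the replicate block and each library left out. Members and lists were chosen with earlier results of these data known. Counts of reads cover counting error only. Some listed genes are not reported here.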

Additional observations from a re-analysis of the deposited data

Results flagged for a closer look

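ALPL differed between the guides in the test of that difference, with KO-2 higher than KO-1 by 0.37 on the log2 scale (limma, adjusted p = 0.026), at 6.54 and 6.45 log2 CPM in KO-1 and 6.88 and 6.84 in KO-2. ITGAV, the integrin alpha chain that pairs with ITGB3, differed the other way, with a log2 difference of -0.27 for KO-2 against KO-1 (adjusted p = 0.027), at 9.60 in both KO-1 libraries and 9.29 and 9.38 in KO-2. Of the 89 tested genes in the other lists, these 2 were the ones called in that comparison (background 1.14% of tested genes). A count this near that share is no result about the lists. Neither call held without KO-1 replicate 1 or without KO-1 replicate 2, since each of those fits called 0 of all tested genes between the guides.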

How the results depend on the processing

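Leaving out 1 library moved the number of genes called from 4068 to between 1286 and 6075 over both guides, from 4089 to between 1694 and 6255 for KO-1, from 2329 to between 362 and 4565 for KO-2, and from 157 to between 0 and 3170 for KO-2 against KO-1. Members called then ran from 4 to 6 over both guides, 5 to 6 for KO-1, 3 to 6 for KO-2 and 0 to 2 between the guides. Without the mean-variance trend, 2201, 2345, 162 and 1 genes were called, in the same order, and 2 members for KO-2. With only the groups compared, 6259 genes were called for KO-1, 1371 for KO-2 and 48 between the guides. Setting library medians equal called 2575 genes higher and 1598 lower over both guides, 61.7% higher against 49.4%; for KO-1 60.5% against 49.0%, for KO-2 64.5% against 51.6%, and it called the same number of members, 6, 5 and 6. The share called higher in KO-2 was 62.4% or 64.4% without control replicate 1 or 2. Between the guides, 29.3% of calls were higher in KO-2, 18.1% with the replicate block, 4.2% with only the groups compared, 6.8% or 6.7% without control replicate 1 or 2, and 39.8% or 48.7% without KO-2 replicate 1 or 2. NECTIN2, never called, changed sign without 1 library: its log2 fold change ran from -0.00 to 0.10 in KO-1, -0.02 to 0.08 in KO-2 and -0.07 to 0.04 between the guides. BTN2A2 ran from -0.07 to 0.02 without 1 library and was 0.02 with equal medians and 0.01 after quantile normalization, which put STT3A at -0.04. The replicate block called 3782 genes over both guides and raised the adjusted p of PVR in KO-2 to 0.056; it changed no other member's call. Replicate numbers did not pair the libraries, with correlations of deviations of -0.053, 0.044 and -0.036. Of the members' other alternatives, 390 left direction and call as they were, 19 lost a call and 7 gained one. Some fits held fewer libraries, and the cause of these changes was not tested. With 2 libraries a group, changes below about 0.1 log2 units lie within the intervals even for abundant members. Genes with fewer reads have wider intervals: over both guides 0.72 to 1.33 for VTCN1, against -0.07 to 0.15 for NECTIN2. Low genes such as ILDR2 and HAVCR2 rest on 0 to 26 reads a library.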

Other observations

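Epithelial and breast line markers, which were not part of the comparison of ligands, were also mostly higher. Of 14 listed genes 10 were tested, with a median log2 fold change of 0.30 over both guides. Of these, 6 were called higher and 1 lower (background 14.6% and 14.9% of tested genes). KRT19, a simple-epithelium keratin, rose by 0.47 (limma, adjusted p = 0.00012, and up to 0.023 over 15 alternatives). KRT18 rose by 0.30 (adjusted p = 0.0013, up to 0.048), and KRT8 by 0.27 (adjusted p = 0.0012, and 0.051 without the mean-variance trend). The mesenchymal filament gene VIM rose by 0.37 (adjusted p = 0.0033, and 0.069 without control replicate 2). ERBB2, the HER2 receptor gene, was the marker called lower (-0.19, adjusted p = 0.017), at 7.64 and 7.60 log2 CPM in the controls and 7.35 to 7.55 in the knockout libraries. CDH5, an endothelial cadherin, was the marker of other cells that was called, lower by -0.40 (adjusted p = 0.03), and passed in 8 of 15 alternatives, with adjusted p up to 0.33, reached without control replicate 1.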
